A study of Homo sapiens with 12 samples.

Results

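Transcript levels after exposure to the compound JK139 were set against levels after exposure to the compound JK136 in 3 established lines of gastric cancer cells, named AGS, MKN1 and SNU601. The comparison used 6 of the 12 arrays of the series, 3 labelled JK139 and 3 labelled JK136, chosen by their titles and paired by cell line. AGS with JK139 was paired with AGS with JK136, and likewise for MKN1 and for SNU601, so each line and compound had 1 array. The other 6 arrays, with DMSO or Rhosin, entered no test. The study is about RhoA, a small GTPase, in gastric cancer, and exposed each line to DMSO, Rhosin, JK136 or JK139. All lines were grown in RPMI-1640 medium with fetal calf serum. JK139 and JK136 are known here by code name alone, and the labels state neither their doses nor the times of exposure, so it is not known whether the doses and times of a pair matched.

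RhoA switches between a GTP-bound active form and a GDP-bound inactive form, and in the active form it sets actin filaments and myosin contraction in motion. In epithelial cells this acts on adhesion, on cell division, where RhoA drives the contractile ring, and on transcription through the actin-regulated factor SRF. An array reads the amount of RhoA transcript and of transcripts that respond to stress, to DNA damage, to interferon or to growth signals, and does not read the activity of the GTPase.

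Each array gave a log2 signal from robust multi-array average (RMA) processing for 53617 transcript clusters, of which 16098 carried a gene symbol here. After the least abundant clusters were left out (mean signal under 4.56), 9049 genes were tested. Levels below are log2 signals, and each difference is JK139 minus JK136 on the log2 scale, so 1 is a doubling and 0.58 is 1.5-fold. Errors of mean differences are standard errors (SE) from limma over 3 pairs. The SE starts from the spread between lines in their difference, and limma draws it toward a value shared by all genes. It can therefore be wider or narrower than the spread of a gene's own 3 differences. Nothing in the labels gives separate cultures of a line, so a difference within a line is that of 1 array and 1 array and has no test. Array medians lay between 4.14 and 4.17. The SD over all clusters was 1.99 on the JK136 array of AGS and 2.02 on each of the other 5. Quantile normalization of the 6 arrays, which gives them 1 SD, was run as an alternative. With it the median of the p53 targets below was −0.32, against −0.30, and that of interferon-induced genes −0.26, against −0.25. The part of the SD in the results was not otherwise tested. Epithelial markers were present, as the labelled cell type requires. KRT18, a keratin of simple epithelium, lay between 9.57 and 10.7, and EPCAM, an epithelial adhesion protein, was at 6.67 with JK139 and 6.73 with JK136 in MKN1 and above 10 in the other lines. All 27 epithelial markers on the array passed the filter, which is on the mean signal, and 19 of them lay above it on all 6 arrays. Of 19 gastric epithelial markers on the array, 15 passed it and 6 lay above it on all 6 arrays. Of markers of other cell types, 3 of 6 leukocyte, 2 of 6 endothelial and 1 of 3 fibroblast genes on the array passed it. The summed signal of the 6 leukocyte genes lay between 27.5 and 34.8 with JK139 and between 28.0 and 35.5 with JK136, and that of the 6 endothelial genes between 23.4 and 24.8 with JK139 and between 23.1 and 24.6 with JK136. Members of these lists differed widely in level. The macrophage marker CD163 did not exceed 2.72 and the fibroblast marker DCN did not exceed 2.39. LYZ, a lysozyme gene that gastric epithelium also uses, was at 11.2 with JK139 and 11.2 with JK136 in AGS, 3.61 and 3.52 in MKN1, and 11.8 and 11.9 in SNU601. The fibroblast matrix gene LUM was at 9.06 with JK139 and 8.19 with JK136 in MKN1 and did not exceed 3.04 in the other lines.

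With limma, 0 of 9049 genes (0%) passed an adjusted p of 0.05 between JK139 and JK136, and the smallest adjusted p was 0.842. An unadjusted p under 0.05 was reached by 512 genes (5.66%), against 452.45 expected by chance. Of these, 284 (3.14%) lay higher with JK139 and 228 (2.52%) lay lower. Without adjustment for the number of genes, the 95% confidence interval of a mean difference extended 0.240 to either side in the median gene. A call after adjustment needed more than that. The genes below are given as values that did not pass the test. Over all genes the mean difference was above 0 in 51.7% and below 0 in 48.3%, it was positive in all 3 lines in 15.2% and negative in all 3 in 13.1%, and its median was 0.01. Those shares are the background for the counts that follow, which cover the genes of a list that passed the filter.

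Differences in 1 line were nearly unrelated to those in another across genes. The difference between the compounds had an SD over genes of 0.278 in AGS cells, 0.215 in MKN1 cells and 0.197 in SNU601 cells. In AGS 24 genes (0.265%) lay at least 2-fold higher with JK139 and 28 (0.309%) at least 2-fold lower. In MKN1 there were 3 (0.0332%) and 3 (0.0332%), and in SNU601 2 (0.0221%) and 5 (0.0553%). Across the 9049 genes, which are not independent replicates, Pearson's r between the differences of AGS and MKN1 was 0.03, between AGS and SNU601 0.08, and between MKN1 and SNU601 0.02. The response of AGS was not tested against that of another line, since 6 arrays leave no error for that test.

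RHOA, the GTPase of the study's title, had signals of 10.004 in AGS cells, 9.98 in MKN1 cells and 9.96 in SNU601 cells with JK139, against 9.99, 9.88 and 9.99 with JK136. The compounds overlapped, and the mean difference was 0.03 ± 0.09 (SE, adjusted p 0.967 by limma), with a 95% confidence interval from −0.19 to 0.24. RHOC, a close relative of RHOA, had a mean difference of −0.12 ± 0.10, or −0.07 without MKN1, with a lower signal with JK139 in each line. RHOB, a relative whose transcript is short-lived and inducible, was at 8.13 with JK139 and 7.69 with JK136 in AGS, 7.11 and 7.14 in MKN1, and 6.68 and 6.86 in SNU601. Its mean difference was 0.08 ± 0.13, and −0.10 without AGS.

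The gene that differed most between the compounds was DKK1 (transcript cluster 16705011, chromosome 10), a secreted antagonist of Wnt receptors. It had signals of 8.04 in AGS cells, 7.36 in MKN1 cells and 6.45 in SNU601 cells with JK139, against 9.24, 7.95 and 7.15 with JK136. JK139 was the lower compound within each line, by −1.20 in AGS cells, −0.59 in MKN1 cells and −0.70 in SNU601 cells, while levels over the lines overlapped. The mean difference was −0.83 ± 0.13 (95% confidence interval −1.14 to −0.52, adjusted p 0.842 by limma). DKK1 was the sole gene at least 1.5-fold lower in all 3 lines (0.0111% of genes), and 0 genes (0%) were at least 1.5-fold higher in all 3. The value in MKN1 stood at the threshold, and after quantile normalization of the 6 arrays 0 genes met it. On the DMSO arrays, which enter no test, DKK1 was at 8.18, 7.83 and 6.51 in the same lines, nearer to the JK139 arrays than to the JK136 arrays in AGS and SNU601 and nearer to JK136 in MKN1.

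AADAC, an esterase of the endoplasmic reticulum (transcript cluster 16947045, chromosome 3), had signals of 2.31 in AGS cells, 5.22 in MKN1 cells and 7.25 in SNU601 cells with JK139, against 2.78, 5.95 and 7.93 with JK136. JK139 was lower in each line, with a mean difference of −0.63 ± 0.10, but both AGS values lay under the 4.56 of the filter. GDF15, a secreted cytokine of cell stress and a target of p53, had 9.997 in AGS cells, 5.41 in MKN1 cells and 7.59 in SNU601 cells with JK139, against 10.3, 6.43 and 8.16 with JK136. Its mean difference was −0.63 ± 0.14, and the difference was widest in MKN1 with −1.03. ZNF708, a zinc finger gene, had 5.67, 5.33 and 4.89 with JK139, against 4.54, 4.83 and 4.74 with JK136. Its mean difference was 0.60 ± 0.17, or 0.33 without AGS, where its JK136 signal lay under the filter. These genes, DKK1 and MIR16-2 were all that differed at least 1.5-fold in the mean with the same sign in every line.

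**Figure D1:**
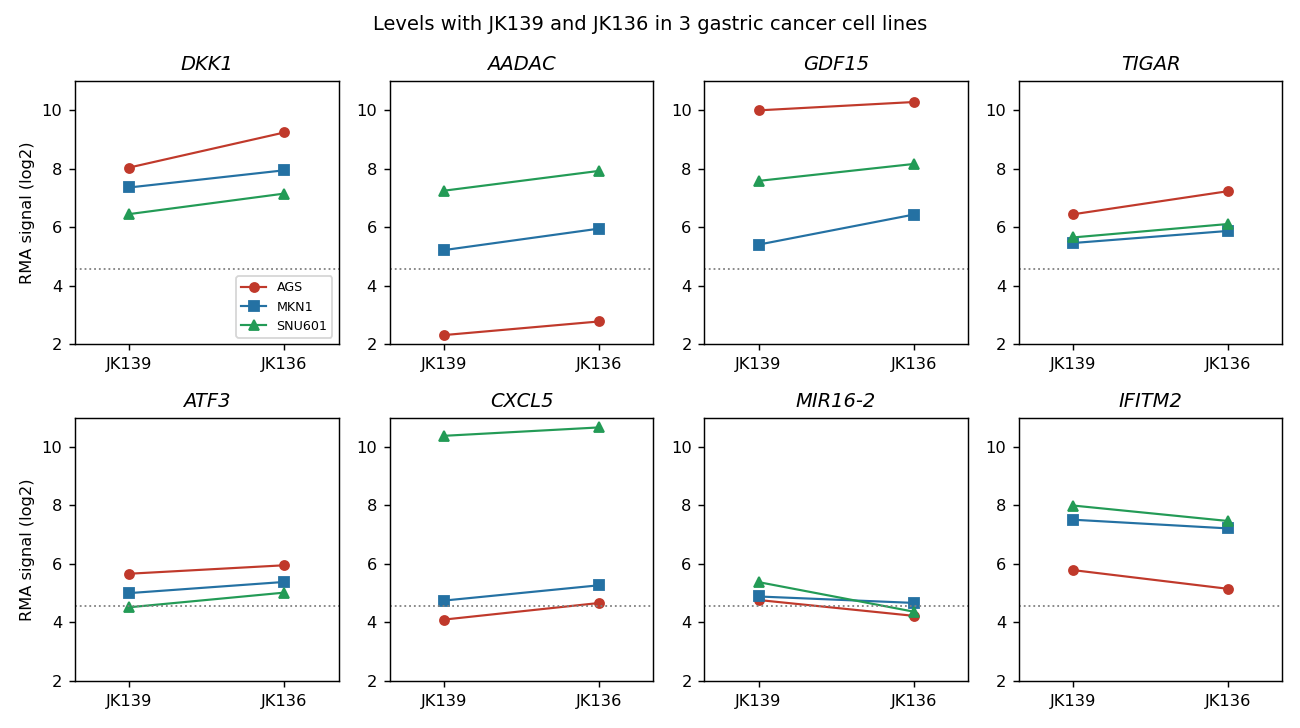
RMA signal (log2, vertical axis) of 8 genes on the JK139 and JK136 arrays of AGS, MKN1 and SNU601, with a line joining the 2 arrays of a cell line and a dotted line at the filter of 4.56. DKK1, AADAC, GDF15, TIGAR, ATF3 and CXCL5 lie lower with JK139 in each line, MIR16-2 and IFITM2 higher, and no gene passed the adjusted p of 0.05.

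MIR16-2 (transcript cluster 16947605, chromosome 3) is 1 of the genes for miR-16, a microRNA that represses cell cycle genes, and lies within SMC4, a condensin subunit gene. Its mature products, from RefSeq in build GRCh38.p14 with the seed (bases 2 to 8) in capitals, are shown because MIR16-2 and ZNF708 were the 2 genes at least 1.5-fold higher in the mean with the same sign in every line.
hsa-miR-16-5p (chr3:160404754-160404775, + strand): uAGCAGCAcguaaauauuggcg
hsa-miR-16-2-3p (chr3:160404797-160404818, + strand): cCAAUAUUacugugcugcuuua
The cluster of MIR16-2 had signals of 4.77 in AGS cells, 4.89 in MKN1 cells and 5.38 in SNU601 cells with JK139, against 4.23, 4.67 and 4.37 with JK136. All JK139 values lay above all JK136 values, and the mean difference was 0.59 ± 0.15, or 0.38 without SNU601. The signals were close to the filter, and the JK136 signals in AGS and SNU601 lay under it. The level of the mature products was not measured on these arrays. SMC4, chosen after its values were seen, differed by 0.19 in AGS cells, 0.18 in MKN1 cells and 0.12 in SNU601 cells.

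The tumour suppressor p53 is a transcription factor stabilised by DNA damage and other stress, and its targets stop the cell cycle or start apoptosis. With JK139, 14 of 14 tested p53 targets, of 30 listed and 16 on the array, lay lower than with JK136, against 48.3% of all genes, and the list had a median difference of −0.30. Per line the median was −0.65 in AGS cells, −0.02 in MKN1 cells and −0.09 in SNU601 cells. Without AGS it was −0.05, with 10 of 14 lower. In AGS 14 of 14 members lay lower with JK139 (46% of all genes), 7 of them at least 1.5-fold (1.7% of all genes). In MKN1 8 of 14 (51.5% of all genes) and in SNU601 11 of 14 (48.6% of all genes) lay lower. Of the 14, 4 had an unadjusted p under 0.05 (2.52% of all genes, in the direction of lower). In all 3 lines 6 were lower (13.1% of all genes), and 0 passed the adjusted p. CDKN1A and MDM2 were not analysed here.

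TIGAR, a phosphatase that restrains glycolysis, had signals of 6.44 in AGS cells, 5.46 in MKN1 cells and 5.65 in SNU601 cells with JK139, against 7.23, 5.87 and 6.11 with JK136. It was lower with JK139 in each line, by −0.79, −0.41 and −0.46, with a mean difference of −0.55 ± 0.11. Among the members that act in apoptosis, BAX, which permeabilises mitochondria, had 7.73, 5.56 and 6.80 with JK139, against 8.60, 5.81 and 6.85 with JK136. Its difference was −0.87 in AGS and −0.06 in SNU601. AEN, a nuclease of apoptotic cells, had a mean difference of −0.33 ± 0.11, with −0.48, −0.39 and −0.12 in AGS, MKN1 and SNU601. BBC3, which codes for the BAX activator PUMA and was chosen after its values were seen, differed by −1.01 in AGS and by 0.53 in MKN1. RRM2B, a ribonucleotide reductase subunit for DNA repair, also chosen after its values were seen, differed by −1.06 in AGS cells, 0.06 in MKN1 cells and −0.11 in SNU601 cells. The lower p53 targets of AGS therefore included members that were not lower in MKN1.

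Interferon-induced genes code for proteins that sense viral RNA, block its translation or degrade it, and are switched on through STAT and IRF factors that bind the interferon-stimulated response element (ISRE). With JK139, 26 of 30 tested members, of 50 listed and 33 on the array, lay lower and 4 higher, with a median of −0.25. The medians were −0.48 in AGS cells, 0.02 in MKN1 cells and −0.02 in SNU601 cells, and −0.01 without AGS, with 17 of 30 lower. In AGS 27 of 30 members lay lower with JK139 (46% of all genes), 14 of them at least 1.5-fold (1.7% of all genes). In MKN1 13 of 30 (51.5% of all genes) and in SNU601 18 of 30 (48.6% of all genes) were lower. Over the 3 lines 3 members had an unadjusted p under 0.05 and lay lower with JK139 (2.52% of all genes). In the direction of higher there was 1 (3.14% of all genes), and 0 passed the adjusted p.

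The members furthest apart in AGS were the antiviral effectors. RSAD2, the antiviral enzyme viperin, was at 5.42 with JK139 and 6.90 with JK136 in AGS, 3.56 and 3.66 in MKN1, and 5.58 and 5.50 in SNU601. IFIT1, which binds viral RNA caps, was at 6.48 with JK139 and 7.93 with JK136 in AGS, 3.14 and 3.01 in MKN1, and 5.35 and 5.49 in SNU601. IFIT2, of the same family, was at 4.91 with JK139 and 6.30 with JK136 in AGS. For these genes the arrays of a pair differed by at most 0.25 in MKN1 and in SNU601, and the MKN1 signals were under the filter. SAMD9, an interferon-responsive gene chosen after its values were seen, was at 6.98 with JK139 and 8.05 with JK136 in AGS, 8.49 and 8.44 in MKN1, and 7.77 and 8.03 in SNU601.

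Promoter stretches of RSAD2, IFIT1 and SAMD9 are shown as examples of genes that differed by more than 1 in AGS and hold the ISRE. IFIT3 (−1.28), IFIH1 (−1.02) and IFI44 (−1.05) did so too and are not shown. IFIT2 (−1.39) and OASL (−1.21) also differed by more than 1 in AGS but were not among the genes in which the ISRE was found. The letters searched were GAAANNGAAA on both strands of the promoter window, which runs from 250 bases before to 50 bases after the gene start, in RefSeq sequences of build GRCh38.p14. Capitals mark the matches, each stretch runs 5′ to 3′ on the strand of the gene, and 24 of the 30 genes had a promoter sequence here.
RSAD2 (chr2:6877620-6877653, + strand): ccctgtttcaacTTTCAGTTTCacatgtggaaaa
IFIT1 (chr10:89392495-89392541, + strand): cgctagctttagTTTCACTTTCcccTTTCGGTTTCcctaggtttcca
SAMD9 (chr7:93118094-93118127, − strand): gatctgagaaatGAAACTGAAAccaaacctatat
The motif was found in 15 of 24 promoters of the list (62.5%) and in 242 of 7018 promoters of all tested genes (3.45%). In AGS the 15 genes with the motif had a median difference of −0.67 and the 9 without it −0.38, which is a description, since the list was drawn up from genes known to respond to interferon.

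Members whose difference was more even over the lines were USP18, a protease that removes ISG15 from proteins, and IFIT5. USP18 had signals of 7.16 in AGS cells, 5.32 in MKN1 cells and 6.66 in SNU601 cells with JK139, against 7.55, 5.53 and 6.96 with JK136, a mean difference of −0.30 ± 0.10. IFIT5 had a mean difference of −0.29 ± 0.10 and HERC6, of a family of ubiquitin ligases, of −0.31 ± 0.13, or −0.14 without AGS, where both signals of HERC6 lay under the filter. IFITM2, a membrane protein that restricts virus entry, lay the other way. It had 5.79, 7.51 and 7.997 with JK139, against 5.15, 7.22 and 7.47 with JK136, and its mean difference was 0.49 ± 0.11. IFITM2 has close relatives in IFITM1 and IFITM3, so its probes may share signal with them.

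ATF4 is a transcription factor made when amino acids run short or proteins misfold, and it switches on enzymes of amino acid synthesis. Of 21 tested ATF4 targets, from 42 listed and 24 on the array, 16 lay higher with JK139 and 5 lower, with a median of 0.10, against 51.7% of all genes above 0. The median was 0.32 in AGS cells, −0.19 in MKN1 cells and 0.07 in SNU601 cells. Without AGS it was −0.03, with 7 of 21 higher. In AGS 16 of 21 members lay higher with JK139, 8 of them at least 1.5-fold (2.31% of all genes), while in MKN1 2 of 21 lay higher. Over the 3 lines 1 member had an unadjusted p under 0.05 in each direction, against 3.14% of all genes higher and 2.52% lower.

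ASNS, asparagine synthetase, was at 8.78 with JK139 and 7.82 with JK136 in AGS, 6.11 and 6.37 in MKN1, and 5.05 and 4.14 in SNU601. It was higher with JK139 in AGS and SNU601 and lower in MKN1, with a mean difference of 0.54 ± 0.22, or 0.93 without MKN1, and its JK136 signal in SNU601 was under the filter. TRIB3 is a pseudokinase induced in the stress response. It was at 5.22 with JK139 and 4.19 with JK136 in AGS, 6.12 and 6.22 in MKN1, and 7.37 and 7.05 in SNU601. Its JK136 signal in AGS lay under the filter. CTH, an enzyme of cysteine synthesis chosen after its values were seen, differed by 1.07 in AGS cells, 0.21 in MKN1 cells and −0.25 in SNU601 cells. ATF3, a transcription factor of the same pathway, was lower with JK139 in every line, with 5.67, 5.003 and 4.52 with JK139, against 5.96, 5.39 and 5.02 with JK136, a mean difference of −0.39 ± 0.10. It thus lay against the list's median in AGS and SNU601 and with it in MKN1. STC2, a secreted glycoprotein, had a mean difference of −0.27 ± 0.14, with −0.50 in AGS cells, −0.44 in MKN1 cells and 0.14 in SNU601 cells, and its AGS and SNU601 signals lay under the filter.

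**Figure D2:**
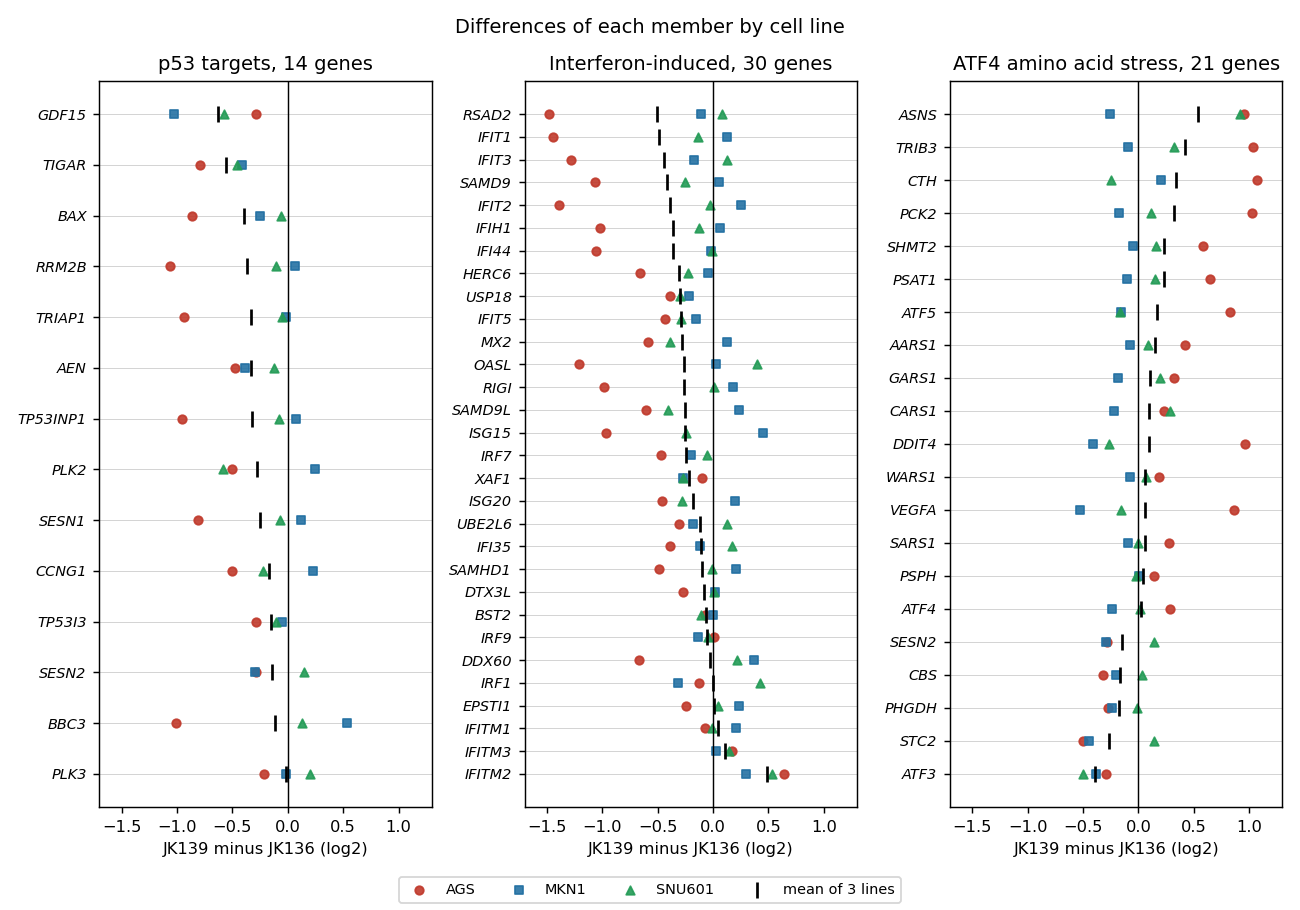
Difference between JK139 and JK136 (log2, horizontal axis) for every tested p53 target (14), interferon-induced gene (30) and ATF4 target (21), with a mark for each cell line and a bar at the mean of 3 lines, ordered by that mean. The AGS marks lie furthest from 0 for most genes. They lie mostly to the left for the p53 and interferon lists and mostly to the right for ATF4 targets. The MKN1 marks of ATF4 targets lie left of 0 for 19 of 21 genes. The other MKN1 marks and the SNU601 marks lie on both sides of 0.

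For these lists the AGS arrays were also set beside the DMSO array of AGS, which both compounds share. The p53 targets had a median difference from DMSO of −0.05 with JK139 and 0.62 with JK136. The interferon-induced genes had −0.04 with JK139 and 0.57 with JK136, and the ATF4 targets −0.18 with JK139 and −0.48 with JK136. In AGS the JK139 array thus lay nearer to DMSO than the JK136 array did in the p53, interferon and ATF4 lists. The NRF2 targets, described below, went the other way in AGS. Their median difference from DMSO was −0.19 with JK139 and 0.06 with JK136. The ranges of the summed leukocyte signal, given above, overlapped between the compounds. They span the lines, and the compounds were not compared within a line for these sums. CD68, a lysosomal marker of macrophages, was also expressed in these gastric lines. It was at 5.80 with JK139 and 6.43 with JK136 in AGS, 8.39 and 8.96 in MKN1, and 8.28 and 8.42 in SNU601. In these bulk samples fewer cells of a kind and less RNA per cell cannot be told apart.

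Mitotic genes code for the kinesins, kinases and kinetochore proteins that build the spindle and divide the chromosomes, and they are transcribed as cells approach division. With JK139, 29 of 31 tested members, from 40 listed, lay higher than with JK136 and 2 lower, with a median of 0.13. This list differed in the same way in each line, with medians of 0.16 in AGS cells, 0.10 in MKN1 cells and 0.11 in SNU601 cells, and 27, 28 and 27 of 31 members higher. Members higher in all 3 lines numbered 22 of 31, against 15.2% of all genes, and leaving out a line gave medians between 0.10 and 0.14. Gene by gene, 1 of 31 members, KIF18A, had an unadjusted p under 0.05, against 3.14% of all genes. Of genes of DNA replication, made earlier in the cell cycle, 11 of 25 lay higher and 14 lower, with a median of −0.03. In SNU601 21 of the 25 lay higher with a median of 0.09, close to the mitotic median there, while in AGS and in MKN1 10 of 25 lay higher, with medians of −0.07 and −0.05.

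KIF18A, a kinesin that holds chromosomes at the spindle's middle, had signals of 7.60 in AGS cells, 7.66 in MKN1 cells and 7.66 in SNU601 cells with JK139, against 7.01, 7.41 and 7.39 with JK136. The JK139 arrays all lay above the JK136 arrays, and the mean difference was 0.37 ± 0.11 (95% confidence interval 0.12 to 0.62). HMMR, a spindle and hyaluronan-binding protein, had a mean difference of 0.23 ± 0.10, or 0.14 without AGS, and NDC80, a kinetochore subunit, of 0.20 ± 0.09. TOP2A, the topoisomerase that untangles chromosomes, had 10.06, 10.97 and 10.16 with JK139, against 9.86, 10.78 and 9.99 with JK136. Its difference was 0.19, 0.19 and 0.17, the most even of the 4. Relative to DMSO the list's median in AGS was 0.04 with JK139 and −0.13 with JK136, in MKN1 0.12 with JK139 and −0.002 with JK136, and in SNU601 −0.07 with JK139 and −0.21 with JK136.

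The promoter of KIF18A is shown because it was the mitotic gene of largest difference and holds both elements known from such promoters, the CHR (TTTGAA) and the CCAAT box (CCAAT). Capitals mark the matches on either strand in the same window and build as above, and 28 of the 31 genes had a promoter sequence.
KIF18A (chr11:28108157-28108213, − strand): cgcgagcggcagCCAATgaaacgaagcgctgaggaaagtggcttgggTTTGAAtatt
The CHR was found in 20 of 28 promoters (71.4%) and in 933 of 7018 of all tested genes (13.3%). The CCAAT box was found in 24 of 28 (85.7%) and in 3009 of 7018 (42.9%). The 20 genes with the CHR had a median mean difference of 0.14 and the 8 without it 0.12. For the CCAAT box the medians were 0.13 over the 24 genes with it and 0.16 over the 4 without it.

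Ribosome biogenesis genes code for nucleolar proteins that process ribosomal RNA. With JK139, 18 of 19 tested members, from 31 listed, lay lower and 1 higher, with a median of −0.10. The medians were −0.14 in AGS cells, −0.09 in MKN1 cells and −0.08 in SNU601 cells, and 9 of 19 were lower in all 3 lines, against 13.1% of all genes. Leaving out a line gave medians between −0.11 and −0.07. NOLC1, a nucleolar chaperone, had signals of 7.87, 7.99 and 8.69 with JK139, against 8.22, 8.16 and 8.97 with JK136, and a mean difference of −0.27 ± 0.10. NOP16 had a mean difference of −0.29 ± 0.11 and RRP12 of −0.20 ± 0.10, both lower in each line. MYC, the transcription factor that drives this group, is not a nucleolar processing protein but was itself on the list. It counts among the 18 lower members, with a mean difference of −0.29. It differed by 0.10 in AGS cells, −0.78 in MKN1 cells and −0.18 in SNU601 cells. The E-box that MYC binds, CACGTG, was found in 8 of 12 promoters of the list (66.7%) and in 888 of 7018 of all tested genes (12.7%), and the median mean difference was −0.10 over the 8 and −0.11 over the 4 without it.

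**Figure D3:**
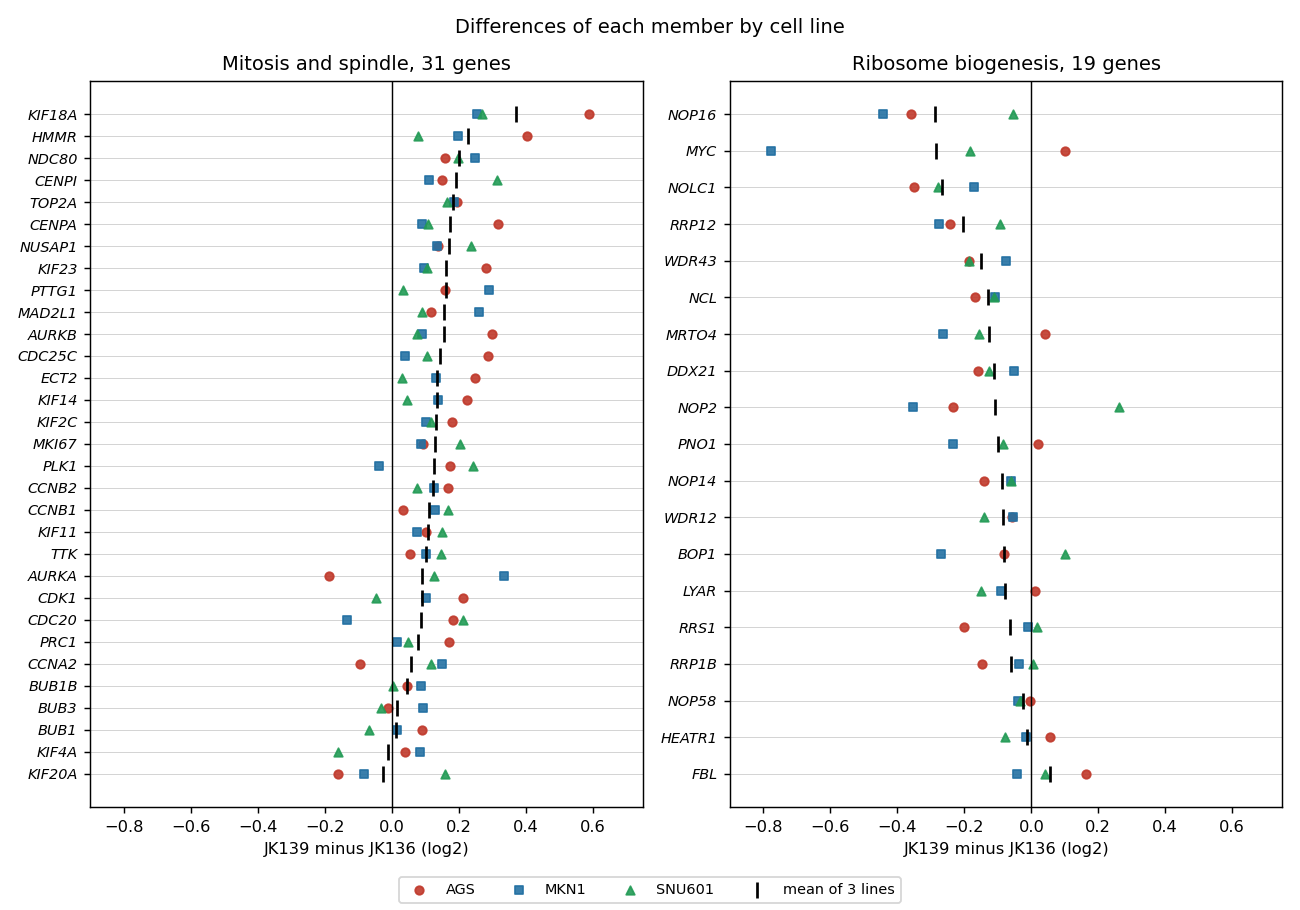
Difference between JK139 and JK136 (log2, horizontal axis) for every tested mitotic gene (31) and member of the ribosome biogenesis list (19, MYC included). There is a mark for each cell line and a bar at the mean of 3 lines. Most mitotic marks lie right of 0 and most ribosome biogenesis marks left of 0 in AGS, MKN1 and SNU601 alike, nearly all within 0.4 of 0.

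Among chemokines and targets of NF-kB, a factor of inflammation, 32 were listed, 20 were on the array and 11 were tested. In the mean over lines 10 of 11 lay lower with JK139, with a median of −0.13. Line medians were −0.12 in AGS cells, −0.19 in MKN1 cells and −0.08 in SNU601 cells. Within the lines 7, 9 and 7 of 11 were lower (46%, 51.5% and 48.6% of all genes), and 3 were lower in all 3 lines (13.1% of all genes). CXCL5, which attracts neutrophils, had signals of 4.10, 4.75 and 10.4 with JK139, against 4.66, 5.27 and 10.7 with JK136. It was lower with JK139 in each line, with a mean difference of −0.46 ± 0.10, and high in SNU601 alone. Its JK139 signal in AGS lay under the filter. The cytokine IL32 had 4.11, 5.24 and 5.39 with JK139, against 4.88, 5.63 and 5.46 with JK136. Its mean difference was −0.41 ± 0.14, or −0.23 without AGS, where its JK139 signal lay under the filter. IL18 differed by −0.42 in AGS cells, 0.11 in MKN1 cells and −0.46 in SNU601 cells, and CCL5, which attracts T cells, by −0.83, −0.19 and 0.12.

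NRF2 governs genes of antioxidant defence, and of its 13 tested targets 10 lay lower with JK139. Their median was −0.12. The median was −0.28 in AGS cells, 0.07 in MKN1 cells and −0.03 in SNU601 cells, and 0.003 without AGS. HMOX1, which breaks down heme, was at 5.83 with JK139 and 7.13 with JK136 in AGS, 5.57 and 5.48 in MKN1, and 5.58 and 5.65 in SNU601, so its mean difference of −0.43 ± 0.24 rested on AGS, and it was 0.01 without that line. TALDO1, an enzyme of the pentose phosphate pathway, differed alike in the lines, by −0.23, −0.23 and −0.28. SRXN1, which repairs peroxiredoxins, had a mean difference of −0.21 ± 0.11 and OSGIN1 of −0.19 ± 0.11, or −0.11 and −0.09 without AGS.

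Of 14 Wnt targets 8 lay higher and 6 lower with JK139, a split close to the background. At an unadjusted p under 0.05 there were 2 higher and 3 lower, DKK1 among the lower ones, against 3.14% and 2.52% of all genes, and 0 passed the adjusted p. In all 3 lines 5 of 14 lay higher (15.2% of all genes) and 3 lower (13.1%). The list's median was 0.08, or −0.03 without AGS, and its mean was −0.03. BMP4, a growth factor chosen after its values were seen, had 8.36, 8.46 and 8.16 with JK139, against 7.94, 8.22 and 7.81 with JK136, a mean difference of 0.34 ± 0.10, opposite in direction to DKK1. Among 13 targets of SRF, the factor downstream of RhoA and actin, 9 lay higher and 4 lower, with a median of 0.08, or 0.04 without SNU601. TAGLN codes for an actin-binding protein of contractile cells. It was at 7.32 with JK139 and 6.81 with JK136 in AGS, 4.86 and 4.31 in MKN1, and 5.40 and 5.51 in SNU601. Its JK136 signal in MKN1 lay under the filter. TAGLN2, its relative, had a mean difference of −0.21 ± 0.11, or −0.13 without AGS. For TGFB1I1, a focal adhesion protein, it was −0.18 ± 0.12, or −0.03 without MKN1. TPM1, a tropomyosin, differed by 0.25 ± 0.14 in the mean, or 0.06 without AGS. A second cluster of TPM1, with a mean signal of 3.08 under the filter, differed by 0.72 in AGS and −0.24 in SNU601.

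Immediate-early genes, which respond first to a growth signal, were split, 12 of 23 lying higher with JK139, and their median was 0.01. Line medians were 0.12 in AGS cells, −0.04 in MKN1 cells and −0.05 in SNU601 cells. At an unadjusted p under 0.05 there were 4 higher and 2 lower, against 3.14% and 2.52% of all genes, and 0 passed the adjusted p. EGR1, a zinc finger factor of this group, nevertheless had the highest difference of all genes in AGS, at 8.58 with JK139 and 7.06 with JK136, with 9.62 and 9.0002 in MKN1 and 7.64 and 7.65 in SNU601. A second cluster of EGR1 differed by 0.82, 0.75 and −0.25 in the same lines. FOS, an AP-1 subunit chosen after its values were seen, had 6.34, 7.39 and 6.97 with JK139, against 5.55, 6.83 and 6.91 with JK136.

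Markers of intestine and of mesenchyme can appear in gastric cancers. Of 9 intestinal markers 6 lay lower, with a median of −0.10, and of 9 mesenchymal markers 7 lay lower, with a median of −0.10. Intestinal line medians were −0.09 in AGS cells, 0.07 in MKN1 cells and −0.08 in SNU601 cells, and 2 of 9 members were lower in all 3 lines. Mesenchymal line medians were −0.07 in AGS cells, −0.04 in MKN1 cells and 0.11 in SNU601 cells. In SNU601 5 of 9 mesenchymal markers lay higher, and 0 of 9 were lower in all 3 lines. The intestinal median was −0.22 without AGS and −0.01 without SNU601, and the mesenchymal median −0.03 without AGS and −0.05 without MKN1. CEACAM5 codes for a surface glycoprotein of gut epithelium. It was at 9.03 with JK139 and 8.18 with JK136 in AGS, 3.50 and 3.12 in MKN1, and 9.66 and 9.62 in SNU601. Both its MKN1 signals lay under the filter. CDX2, the intestinal homeobox factor, had 6.33, 5.16 and 5.80 with JK139, against 6.55, 5.43 and 6.10 with JK136, lower in each line. VIL1, the microvillus protein villin, had a mean difference of −0.32 ± 0.13, or −0.14 without MKN1, where its JK139 signal lay under the filter. CEACAM6 had −0.24 ± 0.16, which was 0.03 without MKN1, where both its signals lay under the filter. SNAI2, a repressor of epithelial genes, had a mean difference of 0.29 ± 0.20, and −0.05 without AGS. S100A4 had −0.17 ± 0.12, or −0.03 without AGS, and lay higher with JK139 in MKN1. The matrix protein FN1 had 0.11 ± 0.10, or 0.19 without MKN1 and 0.06 without SNU601, and LOXL2, which cross-links collagen, −0.13 ± 0.12, or −0.30 without AGS and −0.05 without either other line. FN1 and SNAI2 lay under the filter in AGS and SNU601.

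**Figure D4:**
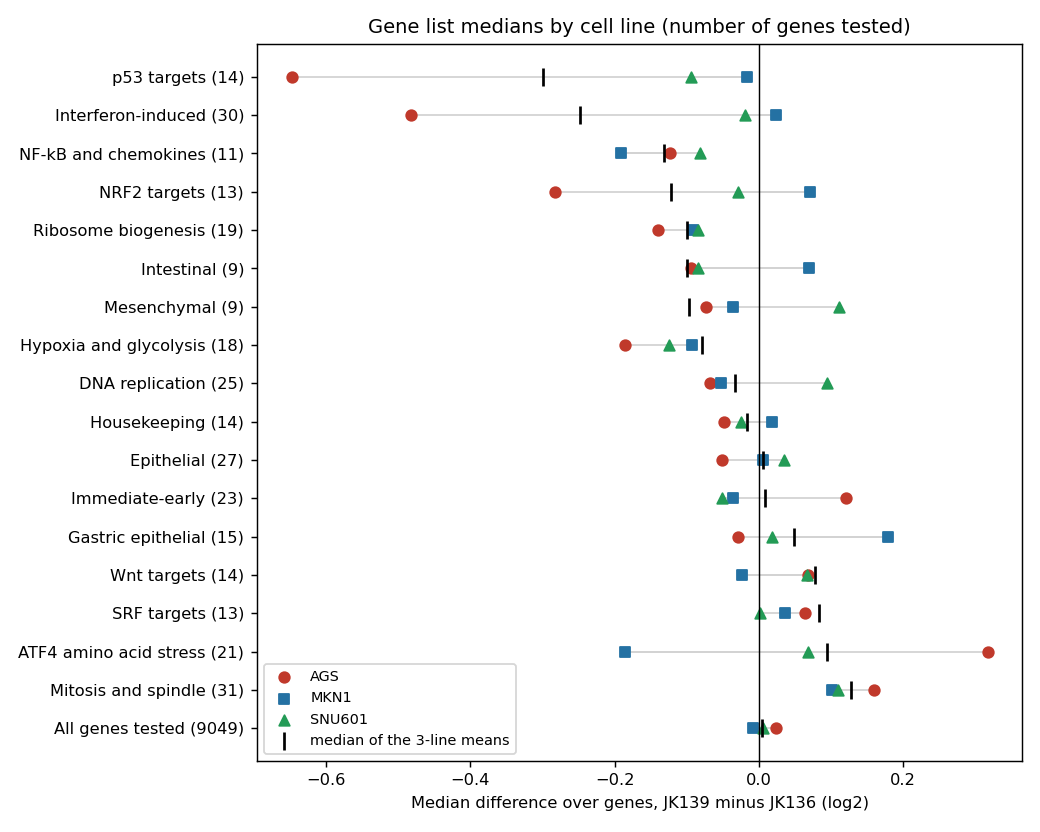
Median difference between JK139 and JK136 (log2, horizontal axis) over the tested genes of 17 gene lists and of all 9049 genes, with a mark for each cell line and a bar at the median of the means over 3 lines. The p53 (−0.65), interferon (−0.48), NRF2 (−0.28) and ATF4 (0.32) lists stand away from 0 in AGS, the mitotic genes (0.10 to 0.16) lie right of 0 and the ribosome biogenesis genes (−0.14 to −0.08) left of 0 in each line, and all genes tested lie near 0.

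No gene was among the 5 highest or the 5 lowest differences of more than 1 line. In AGS the lowest were UCA1, a long noncoding RNA, with −1.49, RSAD2 with −1.48, IFIT1 with −1.45, IFIT2 with −1.39 and PSG6, a pregnancy-specific glycoprotein, with −1.38. UCA1 was at 8.97 with JK139 and 10.5 with JK136 in AGS, 9.03 and 9.15 in MKN1, and 10.9 and 10.6 in SNU601, and a second cluster differed by −0.94 in AGS. The highest were EGR1 with 1.51, CEMIP, which takes part in hyaluronan breakdown, with 1.37, MIR130B with 1.34, the kinase DAPK2 with 1.29 and the apolipoprotein APOA2 with 1.29. The JK136 signal of DAPK2 in AGS, 3.63, lay under the filter.

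In MKN1 the lowest were ZNF544 with −1.64, where both signals lay under the filter, ABHD16B with −1.06, GDF15 with −1.03, RHOG with −0.93 and MIR4653 with −0.91. Both signals of MIR4653 (3.24 with JK139 and 4.15 with JK136) and the JK139 signal of ABHD16B (4.02) also lay under the filter in MKN1. RHOG was at 5.27 with JK139 and 6.20 with JK136 in MKN1, against differences of 0.15 in AGS and 0.05 in SNU601. The highest were STEAP4, a metalloreductase, at 8.23 with JK139 and 6.93 with JK136, PCDHB13, a protocadherin, with 1.26, the pseudogene ASB9P1 with 1.13, TFF1, a trefoil peptide of stomach mucus, with 0.97 and MIR637 with 0.92. STEAP4 lay under the filter in AGS and SNU601, and so did the JK136 signals of PCDHB13, ASB9P1, TFF1 and MIR637 in MKN1.

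In SNU601 the lowest were MMP1, interstitial collagenase, at 6.01 with JK139 and 7.52 with JK136, ZNF430 with −1.41, S100A9, a subunit of calprotectin, with −1.23, ZNF75A with −1.07 and ARRDC3, of the arrestin family, with −1.003. MMP1 was at 6.83 with JK139 and 6.77 with JK136 in AGS. ARRDC3 was lower in each line, with 5.23, 7.73 and 5.09 with JK139, against 5.57, 8.09 and 6.10 with JK136. The highest were TCEAL3 with 1.16, MIR16-2 with 1.01, TSSC2 with 0.93, ASNS with 0.91 and PODXL2, a relative of podocalyxin, with 0.89. In SNU601 the JK139 signals of S100A9 and ZNF75A and the JK136 signals of TCEAL3, MIR16-2, ASNS and PODXL2 lay under the filter. ASNS and MIR16-2 were thus among the highest of SNU601 and lay higher with JK139 in AGS too.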

How the data were processed

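The deposited values are log2 signals from RMA, and the submitters' processing notes name RMA and Affymetrix Expression Console, with versions not given in the sources used here. RMA corrects background, brings the arrays to 1 distribution and summarises the probes of a cluster, so a change shared by most genes would not show. Per the labels, total RNA was labelled with biotin and hybridised to Affymetrix Human Gene 2.0 ST arrays. Symbols came from the platform annotation, and 37519 of 53617 clusters had none here. A symbol with several clusters took the one of highest mean signal on these 6 arrays, which gave 14884 symbols, and those under the 40th percentile of cluster means were left out.

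JK139 minus JK136 was fitted with limma 3.58.1 in R 4.3.3 with cell line as a fixed term, which pairs the arrays because both are of the same line. This left 2 residual degrees of freedom (7.88 after moderation), and Benjamini-Hochberg adjustment ran over 9049 genes. An exact test over 3 pairs could not go below a two-sided p of 0.25. The fit was tested on simulated data. The members and the gene lists were chosen with earlier results of these data known. The text names RHOA, RHOB and RHOC, genes of at least 1.5-fold mean difference and 1 sign in 3 lines, the 4 genes of smallest p in each of the 10 lists of largest median, and the 5 highest and 5 lowest genes of each line. Of 35 lists, the histone list had no tested gene, and some are not reported here. Alternatives covered normalization, filter, cluster choice, prior, threshold, fold, block and lines.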

Additional observations from a re-analysis of the deposited data

Results flagged for a closer look

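Among the genes named, 2 differed between the compounds by 1.5-fold or more in opposite directions in different cell lines. MIR130B, the gene of a microRNA, lay higher with JK139 by 1.34 in AGS and differed by −0.88 in SNU601 (log2, JK139 minus JK136). It was at 5.995 with JK139 and 4.66 with JK136 in AGS, and at 4.56 with JK139 and 5.44 with JK136 in SNU601. A second cluster of MIR130B, on the same arrays, differed by 0.09 in AGS and −0.03 in SNU601 and did not show this. The zinc finger gene ZNF430 lay higher with JK139 by 0.70 in MKN1 and differed by −1.41 in SNU601. It was at 5.85 with JK139 and 5.16 with JK136 in MKN1, and at 4.81 with JK139 and 6.22 with JK136 in SNU601. The difference between the lines was not tested, since each value is that of 1 array and 1 array.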

How the results depend on the processing

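Under every alternative run, limma called 0 genes between JK139 and JK136; the smallest adjusted p was 0.150, without MKN1. The count of genes at an unadjusted p under 0.05, 512 in the fit reported, was 817 without the filter on low signals, 1220 with every cluster on its own and 8 with no replicate block, that is, without the pairing by line; it was 496 with all 12 arrays. The block changed no other call. The count of genes past 1.5-fold with 1 sign in every line, reported as 1, was 0 after quantile normalization and 24 with every cluster on its own (15 higher and 9 lower with JK139). At a fold of 1.3 it was 9 (3 higher and 6 lower) and at a fold of 2 it was 0. Leaving out a line gave 6 to 9, with 0 to 4 higher and 3 to 7 lower.

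The intestinal median was −0.25 with the filter at the 60th percentile and ran from −0.22 to −0.00635 when a line was left out. For Wnt targets the mean of the members was −0.034, and the median without a line ran from −0.025 to 0.070. The median without a line ran from 0.039 to 0.088 for SRF targets. The mean difference of 5 genes changed sign when a line was left out. Without a line RHOB ran from −0.10 to 0.21, HMOX1 from −0.69 to 0.010 and SNAI2 from −0.046 to 0.54, each crossing 0 without AGS. RHOA ran from −0.011 to 0.056 and CEACAM6 from −0.39 to 0.026, each crossing 0 without MKN1. The cause was not tested. Precision is limited by the number of arrays, and genes with signals near 4.56 lie close to background.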

Other observations

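Genes of fatty acid synthesis and of the lysosome were not among the lists of largest median and are given here as values chosen after they were seen. Of 17 fatty acid genes 11 lay higher with JK139 and 6 lower, with a median of 0.07. At an unadjusted p under 0.05 there were 3 members, all higher, against 3.14% of all genes. SREBF1, the lipogenic transcription factor, had signals of 6.47 in AGS cells, 6.90 in MKN1 cells and 7.11 in SNU601 cells with JK139, against 5.78, 6.66 and 6.69 with JK136, a mean difference of 0.45 ± 0.11 (log2, SE, 3 lines). SCD, the stearoyl-CoA desaturase, had 10.3, 10.3 and 10.3 with JK139, against 9.87, 9.72 and 10.2 with JK136. The rate-limiting carboxylase ACACA differed by 0.30, 0.20 and 0.18.

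Of 20 genes of the lysosome and autophagy 14 lay lower with JK139 and 6 higher, with a median of −0.04. At an unadjusted p under 0.05, 4 were lower, against 2.52% of all genes. CTSL, the protease cathepsin L, had 3.66 in AGS cells, 6.96 in MKN1 cells and 3.32 in SNU601 cells with JK139, against 3.96, 7.41 and 3.71 with JK136, and lay under 4.56 in AGS and SNU601. The autophagy receptor SQSTM1 differed by −0.76 in AGS cells, −0.21 in MKN1 cells and −0.17 in SNU601 cells, and OPTN, a receptor of the same kind, by −0.60, −0.05 and −0.30. Of 18 hypoxia and glycolysis genes 13 lay lower, including the glycolytic enzymes TPI1 with −0.25, −0.28 and −0.26 and PGAM1 with −0.18, −0.21 and −0.36 in the same lines. Among markers of other cell types, ESAM, an adhesion protein of endothelium, lay higher in each line with a mean of 0.38 ± 0.09, and LUM, a matrix protein of fibroblasts, was at 9.06 with JK139 and 8.19 with JK136 in MKN1. By limma no adjusted p was under 0.05 for any of these genes.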
